A study of Mus musculus with 6 samples.

Results

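Replication-dependent histone genes of the H2B, H3 and H4 families were followed in 6 RNA-seq libraries made from very small amounts of mouse embryonic stem cell RNA. They were taken as every row of the deposited expression table whose symbol starts with Hist1, Hist2, Hist3 or Hist4 and goes on with h1, h2b, h3 or h4. This gave 44 of 12331 rows, namely 19 H2B, 12 H3 and 13 H4 genes. No row used here matched the H1 pattern, so linker histones of this kind were not analysed here. Of the 44 genes, 35 belonged to the Hist1 cluster, 6 to Hist2, 2 to Hist3 and 1 to Hist4. The RNA was from a single source, the established E14tg2a line of mouse embryonic stem cells, kept in serum and LIF, the cytokine that holds such cells undifferentiated. First-strand cDNA was made from 10 pg of total RNA, about what a cell holds, with a tagged oligo(dT) primer, tailed with poly(A) and amplified with 20 PCR cycles. The cDNA was then broken by sonication in 3 libraries, or cut and tagged by hyperactive Tn5 transposase (tagmentation) in the other 3. The labels call the libraries technical replicates and number them 1 to 3 in both groups, and the question was whether fragmentation changes what is measured. Where 3 values are given for a method, they follow the numbers 1 to 3.

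Replication-dependent histone genes are switched on together when a cell copies its DNA. Their proteins package the new strands: H3 pairs with H4 and H2A with H2B in the nucleosome core. Their messenger RNAs are unusual in that most end without a poly(A) tail. The end is formed by a cut just behind a short stem-loop, which is bound by the stem-loop binding protein Slbp. Some of these genes can also give longer, polyadenylated transcripts by running past the stem-loop to a later signal. An oligo(dT) primer binds a poly(A) tail or another run of A, which bears on how such transcripts enter a library of this kind.

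The stem-loop is shown first, because it marks the 3′ end that an oligo(dT) primer would not bind. All 44 genes matched a gene in GENCODE release M21 (GRCm38), and 31 of them had the histone stem-loop pattern behind the stop codon of an annotated transcript. In 7 of the others, Hist1h3h among them, the annotated transcripts ended within 20 bases of the stop codon, so it could not be found there. The pattern, GGNNNTNNNNANNNCC with complementary arms of 6 bases, was also found anywhere in 1.35% of 58797 protein-coding transcripts. It is printed below from 5′ to 3′ in capitals, with 5 bases on either side.
Hist1h2bf: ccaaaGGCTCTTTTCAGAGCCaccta
Hist1h2bk: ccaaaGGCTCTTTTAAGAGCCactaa
Hist1h3g: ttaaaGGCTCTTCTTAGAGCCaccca
Hist1h4b: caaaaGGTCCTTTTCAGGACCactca
Hist1h4i: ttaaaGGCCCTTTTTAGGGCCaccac
Hist4h4: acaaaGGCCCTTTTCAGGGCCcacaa
The arms split by family. All 10 H2B and 9 H3 genes with the pattern had the arm GGCTCT, while the 12 H4 genes had GGCCCT in 10 and GGTCCT in 2. In 13 of the 44 genes an annotated transcript carried the poly(A) signal AATAAA or ATTAAA in its last 40 bases. Hist1h4i and Hist4h4 were among them, with transcripts that ran 330 and 2445 bases past the stem-loop. So were Hist1h4a, Hist1h4h, Hist1h4j and Hist2h4, whose mean levels were only 0.1 to 0.318 RPKM (the unit is explained below). Of the 13 genes, 1 passed the filter for the tests below and 12 did not. The annotated transcript of Hist1h2bc held no stem-loop and went on for 742 bases behind the stop codon. The longest run of A in an annotated transcript was 2 to 11 bases, with 11 in Hist1h2be.

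Promoters are shown for Hist1h3h, Hist1h4i and Hist4h4, which led their families, and for Hist1h2bk as an H2B gene with the octamer, with 150 bases before the start site from RefSeq (GRCm38.p6). The table held promoters of 38 of the genes. Capitals mark the motifs searched on both strands, which were the CCAAT box, the TATA box as TATAAA, the octamer known from H2B promoters as ATTTGCAT, and an element known from H4 promoters as GGTCCG. The last was added after the sequences were seen.
Hist1h2bk, chr13:22035671-22035820, plus strand: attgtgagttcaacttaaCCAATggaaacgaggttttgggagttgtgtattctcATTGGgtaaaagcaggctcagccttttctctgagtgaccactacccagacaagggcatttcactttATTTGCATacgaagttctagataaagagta
Hist1h3h, chr13:21717478-21717627, plus strand: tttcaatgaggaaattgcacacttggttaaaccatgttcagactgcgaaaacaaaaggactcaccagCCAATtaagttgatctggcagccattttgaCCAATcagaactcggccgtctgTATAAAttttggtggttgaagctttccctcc
Hist1h4i, chr13:22041363-22041512, minus strand: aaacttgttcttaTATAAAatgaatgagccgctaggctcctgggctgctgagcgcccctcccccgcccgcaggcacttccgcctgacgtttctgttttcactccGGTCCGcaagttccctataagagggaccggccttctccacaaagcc
Hist4h4, chr6:136804432-136804581, minus strand: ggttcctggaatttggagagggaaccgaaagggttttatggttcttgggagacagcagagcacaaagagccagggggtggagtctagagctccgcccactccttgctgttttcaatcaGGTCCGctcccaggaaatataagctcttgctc
Over the full windows of 300 bases, which reach 50 bases past the start, CCAAT stood in 16 of 16 H2B, 10 of 10 H3 and 3 of 12 H4 promoters, against 37.9% of 27025 promoters. ATTTGCAT stood in 6 H2B promoters (37.5%), in no H3 or H4 promoter and in 1.75% of all. GGTCCG stood in 11 of 12 H4 promoters and in 8.39% of all. TATAAA stood in 20 of the 38, and in 14.2% of all. No motif overlapped another in the stretches printed. A match in these windows is a description of the letters, not a site shown to be bound.

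The genes of a family are near copies of each other. Annotated coding sequences of 13 H4 genes were 85.3% to 100% identical, with a median of 93.9% over 78 pairs. Those of 12 H3 genes were 93.7% to 100% identical (median 97.2%), and those of 14 H2B genes of equal length 82.9% to 99.0% (median 94.8%). Reads from such genes can be split or misplaced between copies, so values of single members are uncertain. Hist1h2bq and Hist1h2br were listed with the same value in each of the 6 libraries. Hist1h4m, whose coding sequence equals that of Hist1h4n, never exceeded 1.89e-06 RPKM. The pseudogene Hist2h3c2-ps, equal in coding sequence to Hist2h3c1, never exceeded 1.33e-14 RPKM.

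Levels are given in RPKM, reads scaled to the length of the gene model and to the alignments of the library, with 18852822 to 34681566 alignments per library. For 39 of the 44 genes the values gave whole reads at a gene-model length of 200 to 3000 bases. In 20 of 38 genes with both lengths, the recovered one equalled the coding length. A gene model of that length has no room for bases past the stop codon beside the whole coding sequence. At 381 bases, the model length of 7 H2B genes, 1 read was worth 0.0757 to 0.139 RPKM. All 10 embryonic stem cell markers looked up were in the table. Pou5f1, Dppa5a, Zfp42 and Utf1 had 91.5 RPKM or more in every library. Nanog had 0 RPKM in number 3 by either method, and Klf4 had 0.336 and 0.141 RPKM in number 1 (sonication first). Sox2 and Tdgf1 had 3.79 and 7.48 RPKM in tagmentation library 2. Of 8 fibroblast markers 5 were in the table, where Thy1 reached 12.1 RPKM in number 1 and the others stayed under 1 RPKM. Of 4 neuroectoderm markers 3 were in the table, summing to 14.3 to 51.1 RPKM. Most of each sum came from Tubb3, with 13.6 RPKM or more in every library. Nes never exceeded 2.56 RPKM, and Pax6 never exceeded 0.0535 RPKM. The 5 endoderm markers were not analysed here. The part of these markers in the histone levels was not tested. Libraries of the same number resembled each other across methods, as given under the processing.

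**Figure D1:**
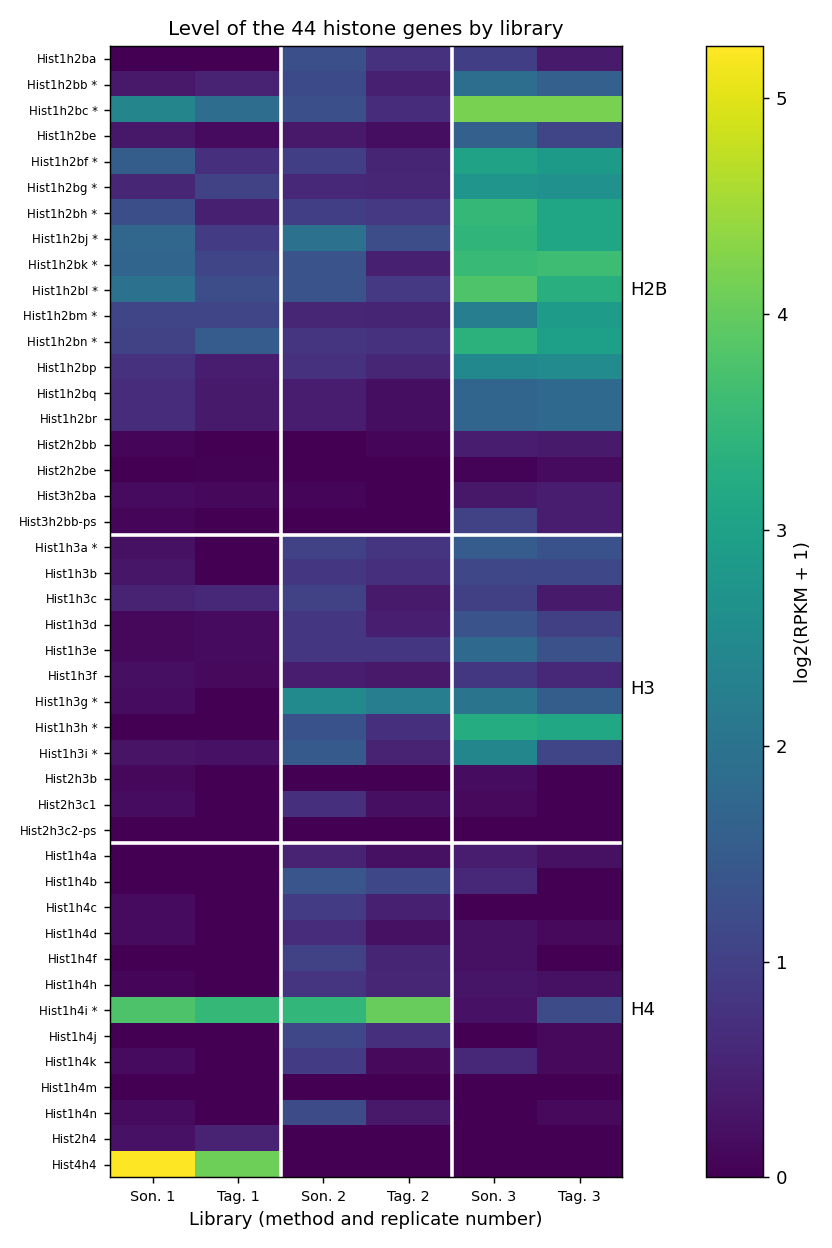
Level of each of the 44 histone genes (rows, grouped as H2B, H3 and H4) in each library (columns, Son. sonication and Tag. tagmentation, with the replicate number), as log2(RPKM + 1). Stars mark the 15 genes that were tested. The H2B block is brightest in both libraries of number 3, and Hist4h4 is bright in number 1 alone.

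These histone transcripts were low and unevenly detected. The RNA was a bulk extract, in which fewer cells with a transcript and less of it per cell cannot be told apart. No member reached 1 RPKM in all 6 libraries, 30 reached it in at least 1, and 6 ever reached 10 RPKM. The number at 1 RPKM or more was 10, 16 and 22 of 44 by sonication, and 8, 4 and 21 by tagmentation. Over all rows the shares at 1 RPKM or more were 55.2%, 51.5% and 49.3% by sonication and 55.0%, 48.3% and 44.0% by tagmentation, against 22.7%, 36.4% and 50% and 18.2%, 9.09% and 47.7% of the members. Tagmentation library 1 had 20 members under 1e-04 RPKM, while the other 5 libraries had 7 to 9. It had 21007424 alignments, and sonication library 3, which had 7 such members, had 18852822. Above 0 were 24 of 44 members in tagmentation library 1 and 36 to 38 in each other library. Of all 12331 rows, 9279 were above 0 in tagmentation library 1 and 9511 to 10332 in each other library. Whether the number of alignments bears on these counts was not tested. H2B transcripts were detected most widely, with 14 of 19 above 0 in all 6 libraries, against 5 of 12 for H3 and 1 of 13 for H4. In 14 of the 39 genes with recovered reads there were fewer than 10 in every library, so their order cannot be read. Reads copied by PCR and not marked by molecule are not independent, so read numbers cover counting error only.

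H2B genes, which encode the partner of H2A in the nucleosome core, were highest in number 3. Their summed level was 20.3, 15.4 and 102.9 RPKM by sonication. By tagmentation it came to 12.6, 8.10 and 91.3 RPKM. In 18 of the 19 genes both libraries of number 3 stood above the other 4, while 14.0% of all rows did so. Over all 44 members it was 24, and 12 of the 15 tested members against 14.7% of tested genes. The exception was Hist1h2ba, the testis H2B gene, with 1.42 RPKM in sonication library 2 and 0.967 RPKM in sonication library 3.

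Hist1h2bc had the highest mean of the H2B genes. It had 4.22, 1.44 and 17.3 RPKM by sonication and 2.68, 0.595 and 17.1 RPKM by tagmentation. These values rested on 93, 23 and 237 reads after sonication and on 41, 15 and 432 after tagmentation, at a model length of 728 bases. The values of the methods lay near each other in number 3 and further apart in numbers 1 and 2, and the groups overlapped. The mean of number 3 was 16.9 times that of number 2, the highest ratio among the tested H2B genes. Their median ratio was 10.5, and the lowest was 2.91 in Hist1h2bb.

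The next members by mean were also highest in number 3. Hist1h2bl had 2.95, 1.55 and 12.8 RPKM by sonication and 1.37, 0.834 and 8.78 RPKM by tagmentation. Hist1h2bk, whose promoter holds the octamer printed above, had 2.25, 1.55 and 10.6 RPKM against 1.12, 0.379 and 11.3 RPKM. In both genes number 3 was highest and number 2 lowest by either method. Hist1h2bj had 2.34, 2.86 and 9.75 RPKM against 0.875, 1.36 and 7.57 RPKM, and so was lowest in number 1. Hist1h2bh had 1.39, 0.954 and 10.3 RPKM against 0.375, 0.834 and 7.57 RPKM. Its tagmentation value in number 1 rested on 3 reads.

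In number 1, 4 H2B genes stood higher after tagmentation and 14 stood lower. Hist1h2bn had 1.04, 0.716 and 9.33 RPKM by sonication and 1.87, 0.682 and 6.81 RPKM by tagmentation. Hist1h2bg had 0.483, 0.517 and 5.69 RPKM against 1.01, 0.470 and 5.25 RPKM. In number 1 these values rested on 12 and 15 reads for Hist1h2bn and on 9 and 13 for Hist1h2bg. Both methods again placed number 3 above the others. Hist1h2bm, with 1.13, 0.477 and 3.76 RPKM against 1.12, 0.455 and 6.43 RPKM, was the tested H2B gene with the higher tagmentation mean by the widest margin. Hist1h2bf had 1.91, 0.954 and 7.10 RPKM against 0.625, 0.455 and 6.28 RPKM. Hist1h2bb was the lowest tested H2B gene, with 0.282, 1.26 and 2.72 RPKM against 0.407, 0.370 and 2.03 RPKM.

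The 9 H2B genes that were not tested reached 1 RPKM in at most 2 libraries. Hist1h2bp reached 4.46 and 4.81 RPKM in the libraries of number 3, and Hist1h2bq and Hist1h2br 2.25 and 2.45 RPKM each. Hist1h2be reached 2.07 and 1.15 RPKM there, and the pseudogene Hist3h2bb-ps 1.03 and 0.310 RPKM. The 3 H2B genes that reached 1 RPKM in no library, Hist2h2bb, Hist2h2be and Hist3h2ba, lie in the Hist2 and Hist3 clusters, and they had at most 10 reads in a library.

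**Figure D2:**
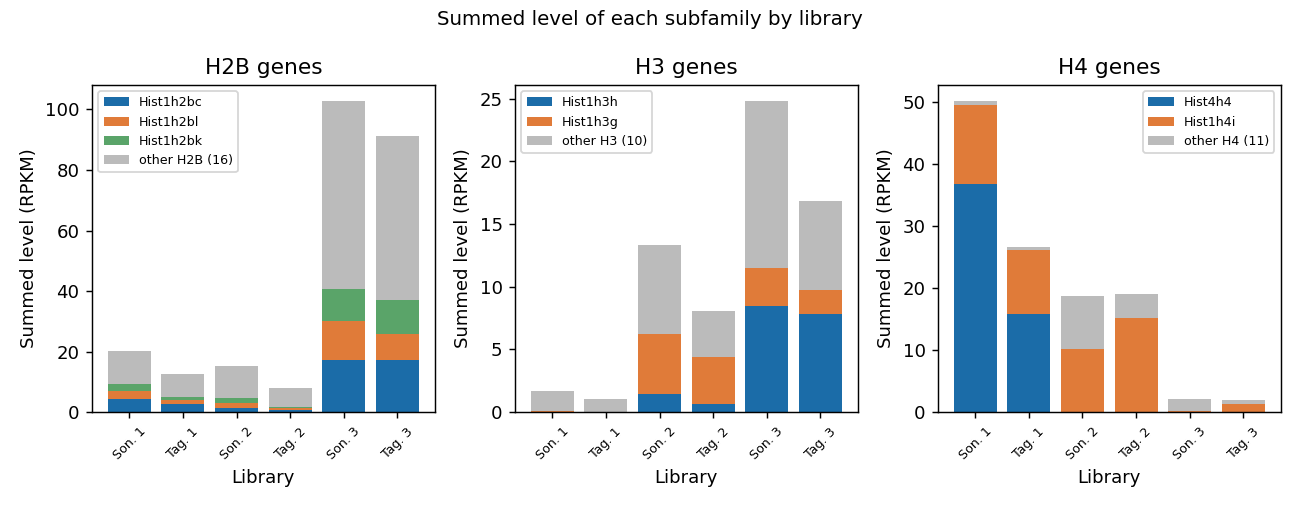
Summed RPKM of the H2B, H3 and H4 genes (panels, separate scales from 0) in each library, with the most abundant members in colour and the others in grey. H2B peaks in number 3, H3 is near 0 in number 1, and H4 is made up mostly of Hist4h4 and Hist1h4i in number 1.

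H3 genes, which encode the core histone that carries many of the regulated lysine marks, were nearly undetected in number 1. Their summed level was 1.71, 13.4 and 24.8 RPKM by sonication and 1.02, 8.09 and 16.8 RPKM by tagmentation. The reads recovered for 11 genes were 27 and 11 in the libraries of number 1, against 139 to 286 in the other 4.

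Hist1h3h and Hist1h3g led the family in different numbers. Hist1h3h had 0 RPKM in number 1 by either method, and reached 1.49 and 0.651 RPKM in number 2 (sonication first) and 8.48 and 7.80 RPKM in number 3. At its model length of 488 bases, 3 reads would have given 0.203 and 0.293 RPKM in number 1. Hist1h3g instead was highest in number 2, with 4.71 and 3.76 RPKM, against 3.02 and 1.93 RPKM in number 3. It had 0.134 and 0 RPKM in number 1. The methods placed the numbers in the same order in both genes.

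Hist1h3i had 0.205, 1.79 and 4.28 RPKM by sonication and 0.197, 0.419 and 1.13 RPKM by tagmentation. Sonication stood above tagmentation in each number, though in number 1 only 3 and 2 reads were behind the values. Hist1h3a had 0.185, 1.02 and 1.89 RPKM against 0, 0.757 and 1.51 RPKM. Of the 8 H3 genes that were not tested, Hist1h3e reached 2.45 RPKM, Hist1h3d 1.55 RPKM, Hist1h3b 1.19 RPKM and Hist1h3c 1.04 RPKM. The other 4, Hist1h3f, Hist2h3b, Hist2h3c1 and Hist2h3c2-ps, stayed under 1 RPKM in all libraries.

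H4 genes, which encode the most conserved core histone, were represented mainly by Hist4h4 and Hist1h4i, except in sonication library 3. The family summed to 50.2, 18.8 and 2.12 RPKM by sonication and to 26.6, 19.1 and 2.02 RPKM by tagmentation. This sum was thus lowest in number 3, where the H2B sum was highest. Without Hist4h4 and Hist1h4i, the H4 sum was instead lowest in number 1, with 0.682 and 0.410 RPKM (sonication first). Hist4h4 had 36.8 and 15.9 RPKM in the sonication and tagmentation libraries of number 1, the highest level of any member after sonication. It was listed at 0 in the other 4 libraries. The shortest model length that gave whole reads was 234 bases, with 261 and 78 reads. At the coding length of 312 bases they would be 348 and 104. In a library of number 2 or 3, 3 reads at 234 bases would be worth up to 0.680 RPKM by sonication and 0.370 RPKM by tagmentation. Taken against these, number 1 was at least 54.1-fold higher after sonication and at least 42.8-fold higher after tagmentation. The gene made up 73.3% and 59.7% of the H4 sum in number 1.

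Hist1h4i was high in numbers 1 and 2 and low in number 3. It had 12.7, 10.2 and 0.198 RPKM by sonication and 10.3, 15.2 and 1.29 RPKM by tagmentation. The low values rested on 2 and 24 reads. In tagmentation library 2 it made up 79.5% of the H4 sum, in sonication library 2 54.1% and in sonication library 3 9.32%.

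The other 11 H4 genes stood highest in number 2, except Hist2h4. Together they had 0.682, 8.63 and 1.92 RPKM by sonication and 0.410, 3.91 and 0.736 RPKM by tagmentation. In number 2 Hist1h4b reached 1.60 and 1.20 RPKM, on 11 and 13 reads. Hist1h4n reached 1.31 RPKM, Hist1h4j 1.17 RPKM and Hist1h4f 1.02 RPKM in sonication library 2, with 7 to 9 reads each. Hist2h4 was seen in number 1 only, with 0.190 and 0.410 RPKM from 2 and 3 reads. Across the family, both libraries of number 2 stood above the other 4 in 8 of 13 genes, against 24.2% of all rows. Over all members it was 10 of 44, and 1 of the 15 tested members against 29.0% of tested genes. In number 1 this held for 2 of 44 members, Hist4h4 and Hist2h4, against 31.8% of all rows, and for 0 of 15 tested members against 30.8%. Among the H4 genes highest in number 2, Hist1h4i aside, only Hist1h4b had 10 or more reads in a library. The others had fewer than 10 recovered reads in every library, and Hist1h4m never exceeded 1.89e-06 RPKM. Their order between numbers, and so the count of 8, cannot be read as a pattern of the family.

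Levels followed the replicate number in the test as well. Genes were tested on log2(RPKM + 1) where at least 3 of 6 libraries had 1 RPKM or more, which kept 15 members: 10 H2B, 4 H3 and 1 H4 gene. All 15 differed between numbers in limma's F test with the method as a term (Benjamini-Hochberg adjusted p 2.28e-17 to 0.000533). This was also the case for 88.1% of 6327 genes, so the share is near that of genes in general. The 29 members with 1 RPKM in fewer than 3 libraries were not tested. The difference between the highest and lowest number was 4-fold or more in 11 members, and in 58.5% of tested genes. The lowest adjusted p belonged to Hist1h4i, with a range of 3.02 on the log2 scale, and Hist1h3h had a range of 3.19. Since the replicates were technical, a p-value here reflects variation among these libraries alone.

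**Figure D3:**
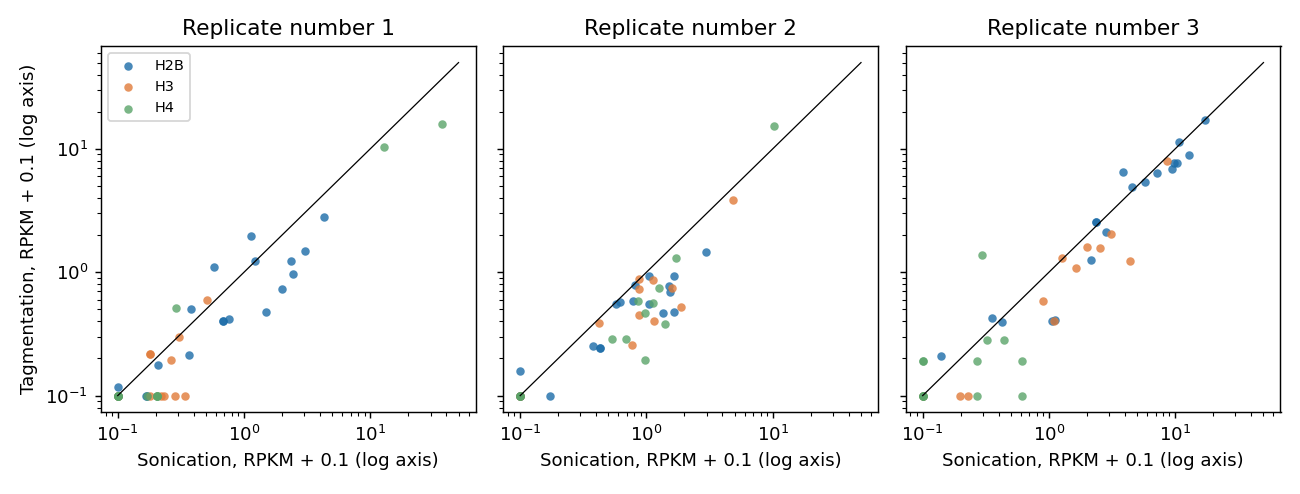
Tagmentation against sonication level of every member (points, coloured by family) within each replicate number, both as RPKM + 0.1 on log axes, with the line of equal values. Points below the line were lower after tagmentation, and 14 of the 44 genes lie below it in all 3 panels.

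Between the methods no member differed in the tests. Limma with the method as the only term called 0 of 15 members, as it called 0 of 6327 genes (0%). At an unadjusted p under 0.05 it had 0 members and 0.284% of genes. Because libraries of equal number were alike, a fit that keeps the number as a block is given beside it. It called 0 of 15 members and 3.29% of all genes (adjusted p under 0.05), with 1.71% lower and 1.58% higher after tagmentation. At an unadjusted p under 0.05 it had 3 members, Hist1h3i, Hist1h2bj and Hist1h2bl, and 16.8% of genes. None of the 15 had groups that did not overlap, against 0.522% of genes with all tagmentation libraries below all sonication libraries and 1.88% with all above.

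**Figure D4:**
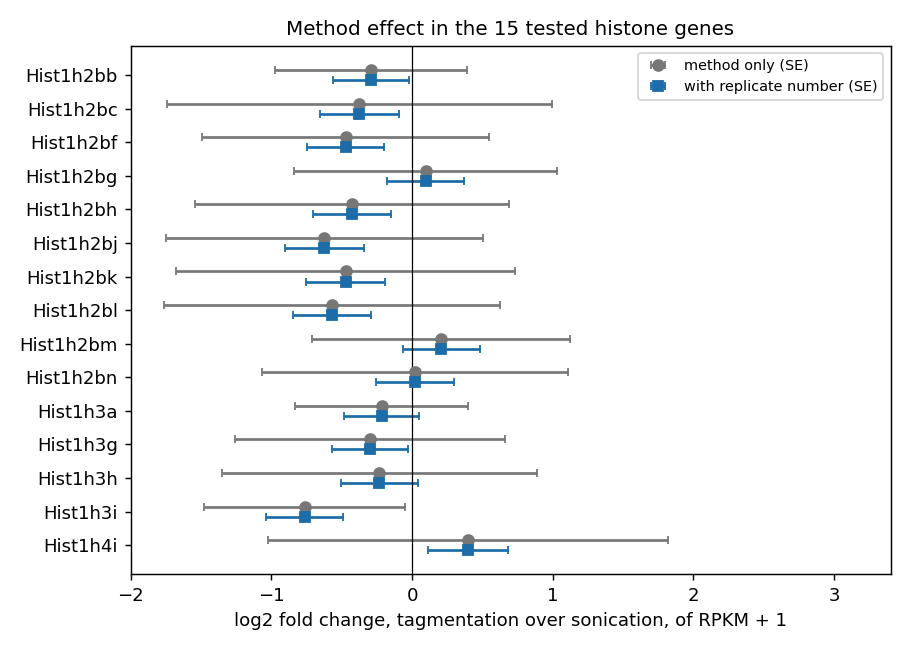
Log2 fold change of RPKM + 1, tagmentation over sonication, with its SE, for the 15 tested members, from limma with the method only (grey circles) and with the replicate number as a block (blue squares). The estimates are equal in both fits, and 11 of 15 lie below 0.

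Values were nonetheless mostly lower after tagmentation. For the 15 tested members the median of the log2 fold changes, tagmentation over sonication, was -0.30, and 11 lay below 0. All tested genes had a median of 0.028, with 47.3% below 0. The median over 10 H2B genes was -0.40 and over 4 H3 genes -0.27, while Hist1h4i had 0.40. In 8 tested members the tagmentation value was lower in 3 of 3 numbers, against 14.2% of tested genes. None was higher in 3 of 3, against 19.6%. Over all 44 members 14 were lower in 3 of 3, against 11.2% of all rows. The median of the tested members turned to 0.17 without sonication replicate 3 (8 members tested), and was -0.018 without tagmentation replicate 1 and -0.097 without tagmentation replicate 2. It was -0.69 and -0.83 without sonication replicates 1 and 2, and -0.94 without tagmentation replicate 3. Leaving out 1 library makes the numbers unequal between the methods, so these values carry differences between numbers as well. The filter then kept 8 to 15 members. With the block and without 1 number the median was -0.39 to -0.22. With a pseudocount of 0.1 RPKM it was -0.72, and with one of 5 RPKM -0.13.

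The single members show how wide the error was. Hist1h3i had 2.09 ± 2.06 RPKM by sonication and 0.583 ± 0.490 RPKM by tagmentation (SD, n = 3). Its log2 fold change was -0.76 (SE 0.71, limma adjusted p 1.00), and with the block the SE was 0.27 and the adjusted p 0.0924. Hist1h2bj had 4.98 ± 4.13 RPKM and 3.27 ± 3.73 RPKM (-0.62, SE 1.13, and with the block SE 0.28 and limma adjusted p 0.223). Hist1h2bc had 7.64 ± 8.45 RPKM and 6.80 ± 8.99 RPKM (-0.38, SE 1.37, and with the block limma adjusted p 0.551). Hist1h4i had 7.69 ± 6.62 RPKM and 8.92 ± 7.04 RPKM (0.40, SE 1.42, and with the block limma adjusted p 0.528). In each of these genes the SD over the numbers was far larger than the difference between the methods, Hist1h3i excepted. With the block but without replicate 1, Hist1h3i was called lower (-1.14, limma adjusted p 0.0121), the only 1 of 22 members tested then. In that fit 14.1% of 6901 genes were called, against 3.29% with all numbers.

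Replacement variants summed to more than the 44 members in all 6 libraries, and H2A genes did so in 5 of them. The 18 replication-dependent H2A genes summed to 106, 326 and 754 RPKM by sonication and to 33.7, 143 and 295 RPKM by tagmentation, where the first value lay below the 40.2 RPKM of the 44 members. With the block, 14 of 16 tested H2A genes were called lower after tagmentation (median log2 fold change -1.21, all 16 below 0), against 1.71% of all tested genes and 0 of 15 members. The ratio of tagmentation to sonication was 0.319, 0.439 and 0.391 for these sums, and 0.620, 0.526 and 0.887 for the H2B sums. It was 0.598, 0.606 and 0.677 for H3, and 0.529, 1.02 and 0.955 for H4. These ratios are descriptions, and the difference between families was not tested. The 11 replacement variants, most of which give transcripts with poly(A) tails, summed to 1032 to 2147 RPKM. Among them H2afz, the variant H2A of promoters, had a mean of 860 RPKM, H3f3b, which encodes the replication-independent H3.3, 220 RPKM, and H2afx, the H2A of DNA damage signalling, 152 RPKM. In no library did the 44 members together exceed 129.9 RPKM, and their share of all RPKM was 0.00920% to 0.0450%.

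**Figure D5:**
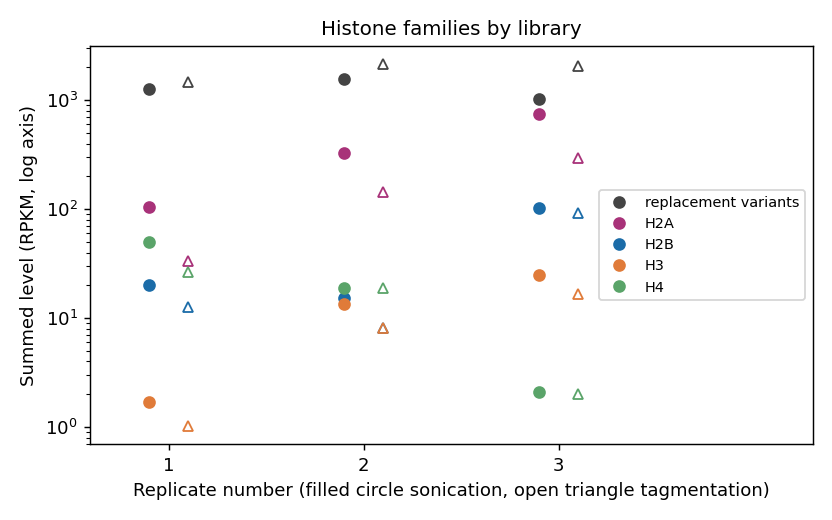
Summed RPKM (log axis) of 5 histone families by replicate number, sonication as filled circles and tagmentation as open triangles. Replacement variants lie above 1000 RPKM throughout, and H4 falls to near 2 RPKM in number 3.

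Genes that make and process histone transcripts were looked up from a list. Of 24 names 23 rows were found and 14 tested. None was called between methods, with or without the block. Between numbers 12 of 14 differed, near the 88.1% of all tested genes. Ccne1, the G1 cyclin whose kinase acts on Npat, had a mean of 108 RPKM and was not called between numbers (limma adjusted p 0.578). Srrt, a cap-binding partner, had a mean of 57.7 RPKM, and Ncbp2, a cap-binding subunit, one of 50.6 RPKM. In 7 of the 14 genes both libraries of number 3 were the lowest, as in 29.1% of all tested genes and in 1 of the 15 tested members, Hist1h4i. The following genes were picked after their values were seen. Slbp had 55.8, 30.8 and 2.37 RPKM by sonication and 82.9, 58.3 and 6.21 RPKM by tagmentation, so it was lowest in number 3, where H2B genes were highest. Npat, the activator of histone gene clusters, had 8.46 and 16.8 RPKM in number 1 and under 1 RPKM elsewhere. Hinfp, a factor known to bind H4 promoters, had 1.76 and 2.45 RPKM in number 1 and was listed at 0 in the others. Other genes of the list were highest in number 3. Upf1 had 32.1 and 32.5 RPKM there and 3.73 to 11.1 RPKM elsewhere, the only 1 of the 14 tested genes highest in number 3. Zfp473, which was not tested, had 4.13 and 6.87 RPKM in number 3 and was listed at 0 elsewhere. Whether these levels bear on the histone levels was not tested.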

How the data were processed

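The deposited file gives RPKM values per gene symbol, made by the authors, with the alignments of each library, per the file headers. The submitters' processing notes name mm9, CASAVA 1.7.0 and Partek. Aligner, annotation and handling of multiply matching reads: not given in the sources used here. No row was at 0 in all 6 libraries. Priming on poly(A) and counting within the gene model bear on the levels of transcripts that lack a tail. Recovered reads were whole within 0.002 reads plus 1e-05 of the reads, at the shortest such length, which can be a divisor of the true one.

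Tests used limma 3.58.1 in R 4.3.3 on log2(RPKM + 1) for genes with 1 RPKM or more in at least 3 of 6 libraries, with eBayes and its trend option. Tests were two-sided, and p-values were adjusted over 6327 genes (Benjamini-Hochberg, threshold 0.05). The added 1 RPKM makes fold changes of low genes too small. Pseudocount, filter, scaling and left-out libraries were varied. Both groups carry the numbers 1 to 3. The labels do not say that equal numbers share a cDNA, but in each number the departures of both libraries from their group means had correlations of 0.952, 0.969 and 0.934, against -0.628 to -0.175 for unequal numbers. Because the 3 departures of a method sum to 0, high correlations for equal numbers force lower ones for unequal numbers. The contrast is thus partly built in. The numbers were taken as pairs. The scripts were tested on simulated data.

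All members that passed the filter are named, with the others that reached 1 RPKM in a library or led their family, and up to 3 genes of a list. The members and lists were chosen with earlier results of these data known. Promoters are RefSeq's (GRCm38.p6) and transcripts GENCODE's, and coordinates are of GRCm38 and not of mm9. Protein sequences were not used here.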

Additional observations from a re-analysis of the deposited data

How the results depend on the processing

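With 6 libraries at 10 pg, read numbers under 10 in many members limit what can be compared. No member was called between methods with a pseudocount of 0.1 or 5 RPKM, without the filter, with median-ratio scaling or without any 1 library (0 to 0), nor with the replicate block. With the block but without 1 number it was 0 to 1. Genes called between methods rose from 0 to 208 with the replicate block, and were 971, 11 and 19 with the block and without number 1, 2 or 3. The cause was not tested. They were 0 without each single library. The median log2 fold change of the tested members was -0.30, -0.72 with a pseudocount of 0.1 RPKM, -0.13 with one of 5 RPKM, -0.94 to 0.17 without each library and -0.39 to -0.22 with the block and without 1 number. A pseudocount changes this value by its construction, and leaving out 1 library makes the numbers unequal between the methods. Genes called between numbers were 5337 to 6152 without 1 number, against 5577. Member calls between numbers were 34 of 44 without the filter, where 67.0% of 12331 genes were called. Without 1 number they were 6 to 22, against 15: 21 of 22 without replicate 1 (77.3% of all genes), 22 of 22 without replicate 2 (69.4%) and 6 of 10 without replicate 3 (76.7%).

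The number of members detected in sonication libraries 1 to 3 was 13, 29 and 27 at 0.5 RPKM, and 2, 1 and 9 at 5 RPKM. In tagmentation libraries 1 to 3 it was 10, 14 and 22 at 0.5 RPKM, and 2, 1 and 10 at 5 RPKM.

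Hist1h2bn turned to -0.033 with a pseudocount of 5 RPKM. Values without 1 library carry differences between numbers as well, since the numbers are then unequal between the methods. Single members turned direction without 1 library, with log2 fold changes of -1.34 to 0.41 for Hist1h2bc, -0.27 to 0.52 for Hist1h2bg, -0.90 to 0.080 for Hist1h2bh, -1.42 to 0.20 for Hist1h2bk and -1.31 to 0.14 for Hist1h2bl. They were -0.49 to 0.69 for Hist1h2bm, -0.59 to 0.84 for Hist1h2bn, -0.56 to 0.14 for Hist1h3a, -0.99 to 0.33 for Hist1h3g, -0.99 to 0.41 for Hist1h3h and -0.73 to 1.25 for Hist1h4i. With the block and without 1 number they were -0.072 to 0.17 for Hist1h2bg, -0.012 to 0.32 for Hist1h2bm and -0.22 to 0.23 for Hist1h2bn.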

Other observations

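Histone chaperones, which carry new histones to DNA, were also looked up. Of 20 listed genes all were in the table and 19 were tested, with a median log2 fold change of 0.089 and 7 below 0. None was called between methods in limma's tests, with or without the block, and 14 of 19 differed between numbers, against 88.1% of all tested genes. Npm1 had the highest mean of the list, 593 RPKM, followed by Set with 156 RPKM and Nap1l1 with 138 RPKM. Nasp, the chaperone of linker and H3 histones, was picked after its values were seen. It had 159, 30.8 and 29.4 RPKM by sonication and 194, 8.63 and 10.6 RPKM by tagmentation (numbers 1 to 3). Nasp thus was highest in number 1, where H3 genes were lowest. In 30.8% of tested genes both libraries of number 1 stood above the other 4. Whether the level of Nasp bears on the H3 levels was not tested.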
